A study of Mus musculus with 3 samples.

Results

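Meis1, Pbx2, Pbx3 and Pknox1 encode DNA-binding cofactors of the Hox proteins. They were chosen by name, as 4 of the 32285 genes counted in each library, and all 4 had UMIs in the kept cells of every library. The study counted RNA together with 10 surface antibody tags by CITE-seq. The cells were immature blood cells of the mouse liver at P0, the day of birth, sorted as negative for mature lineage markers and positive for the receptor KIT. There was 1 library per group: Control (whose library name reads WT), mice with the leukemia fusion MLL-ENL (MLL::ENL, which joins KMT2A to MLLT1), and MLL-ENL mice in which Skida1 was deleted. The labels used here give no allele, promoter or Cre for the fusion or the deletion, and no number of animals per library. Every value therefore stands for 1 library, no difference has a replicate check, no test between groups was made, and all brackets are exact 95% intervals of counting error.

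Proteins of the MEIS, PREP and PBX groups share a homeodomain of the TALE class and bind DNA as partners of each other and of Hox proteins. Meis1 works with Hoxa9 in many acute leukemias with MLL fusions, where both genes are direct targets of the fusion protein, and in normal blood formation it is needed for stem cells and for megakaryocytes. Pbx2 and Pbx3 encode PBX proteins, which bind DNA next to Hox proteins and pair with MEIS and PREP proteins. Pknox1 encodes PREP1, a relative of MEIS1 that also pairs with PBX proteins. In GRCm38.p6, Meis1 (ENSMUSG00000020160) lies on chromosome 11 from 18880428 to 19019651. Pbx2 (ENSMUSG00000034673) lies on chromosome 17 from 34592259 to 34597400, and Pknox1 (ENSMUSG00000006705) on chromosome 17 from 31564722 to 31607693. Pbx3 (ENSMUSG00000038718) lies on chromosome 2 from 34171457 to 34372045.

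After filtering there were 5394 Control, 10807 MLL-ENL and 9344 Skida1-deleted cells, and their depths had medians of 28031.5, 13918 and 17246.5 UMIs. The libraries shared 17 to 33 barcodes in pairs. Cells were clustered without the 4 cofactor genes, the Hox genes, fusion targets and cell cycle genes, and clusters were named from marker lists. The HSPC-like class, named from markers of stem cells and multipotent progenitors, had 1309 Control, 1742 MLL-ENL and 2299 Skida1-deleted cells. In it, 13 to 15 of the 18 markers lay at least 1.5-fold above the other classes in each library. The groups were not mixed evenly: 1300 of the 1309 Control cells lay in cluster c2, whereas fusion cells lay mostly in c15, c16 and c19, with 59 MLL-ENL and 20 Skida1-deleted cells in c2. Granulocyte progenitor-like (c7) and basophil-mast-like (mostly c6) cells shared their clusters across all 3 libraries. Megakaryocyte-like cells lay in c9 in Control and in c9 and c17 in the fusion libraries. Skida1 itself had 0.845 CPM (UMIs of the gene scaled to 1000000 UMIs of its class and library) in Control HSPC-like cells, 16.4 in MLL-ENL and 1.80 in Skida1-deleted cells. That is 9.11 times lower in the deleted library than in MLL-ENL [6.59–12.9]. The labels do not say which part of the gene was deleted, so the remaining 3' tags cannot be placed.

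Among HSPC-like cells, Meis1 was the cofactor gene with the largest ratio between MLL-ENL and Control. In HSPC-like cells it had 89.2 CPM [85.39–93.04] in Control (2109 UMIs), 151 [146–156] in MLL-ENL (3060 UMIs) and 162 [157–167] in Skida1-deleted cells (3777 UMIs). The Control interval lay below both fusion intervals, and the level in MLL-ENL was 1.69-fold that of Control [1.60–1.79]. Hoxa9, its Hox partner (ENSMUSG00000038227, chromosome 6 from 52223097 to 52227370), had 92.5, 170 and 154 CPM in the same cells, 1.84-fold higher in MLL-ENL than in Control [1.74–1.94]. Its log2 ratio of 0.87 was past 1.5-fold in 11 of 12 alternatives, with 0.23 under a strict cell filter that left 22 Control cells. A gene was counted as higher or lower when log2(CPM + 1) differed by at least the log2 of 1.5. By that rule 1 of the 4 cofactor genes, Meis1, was higher in MLL-ENL than in Control HSPC-like cells and 0 were lower. Of 4764 genes with at least 30 CPM in either library, 6.8% were higher and 15% lower. Pbx3 and Pknox1 lay below 30 CPM and were counted all the same. Of 7940 genes with at least 10 CPM, 6.8% were higher and 14.3% lower. The median log2 ratio was 0.27 over the 4 genes and -0.16 over all 4764 genes.

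The size of the Meis1 difference depended on which progenitors were compared. The 59 MLL-ENL cells that clustered with Control cells in c2 had 91.1 CPM, against 89.4 in the 1300 Control cells there, a ratio of 1.02 [0.778–1.31]. Hoxa9 did differ in c2, with 176 CPM in these MLL-ENL cells against 92.8 in Control, 1.90-fold [1.57–2.28]. The fusion clusters each had a higher Meis1 level. In MLL-ENL, Meis1 had 112 CPM in c19, 149 in c15 and 263 in c16, and in Skida1-deleted cells 122, 165 and 286 in the same order. Cluster c16 was led by Meg3, the stem-cell regulators Hlf and Mecom, and the cell cycle inhibitor Cdkn1c. It held only 3 Control cells and had shallower cells, with medians of 6352 and 5550 UMIs against 16283 in Control c2. Without c16 the log2 ratio of MLL-ENL over Control was 0.55, against 0.75 with it. Grouping all fusion cells by the Control cluster of their nearest Control cells gave 140 CPM for the 1881 MLL-ENL cells nearest to c2, 1.57-fold the Control level [1.49–1.66]. Under 5 of 12 other ways to process the cells, the log2 ratio of Meis1 fell below the 1.5-fold threshold of 0.58, with values from 0.41 to 0.56, all of them still positive. Markers of neighbouring lineages moved with the groups too. The 14 granulocyte progenitor markers summed to 4275 CPM in Control HSPC-like cells, with 12 of 14 at 5 CPM or more, and to 3058 and 3147 in the fusion libraries, with 10 of 14, and 0 were at 0. The 14 monocyte-dendritic markers summed to 1071, 646 and 576 CPM (11, 8 and 8 at 5 CPM or more, 0 at 0). The 12 lymphoid progenitor markers summed to 891, 1072 and 980 CPM (9, 9 and 8 at 5 CPM or more; 0, 0 and 1 at 0). The part of depth and of the makeup of the class in the Meis1 difference was not tested.

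**Figure D1:**
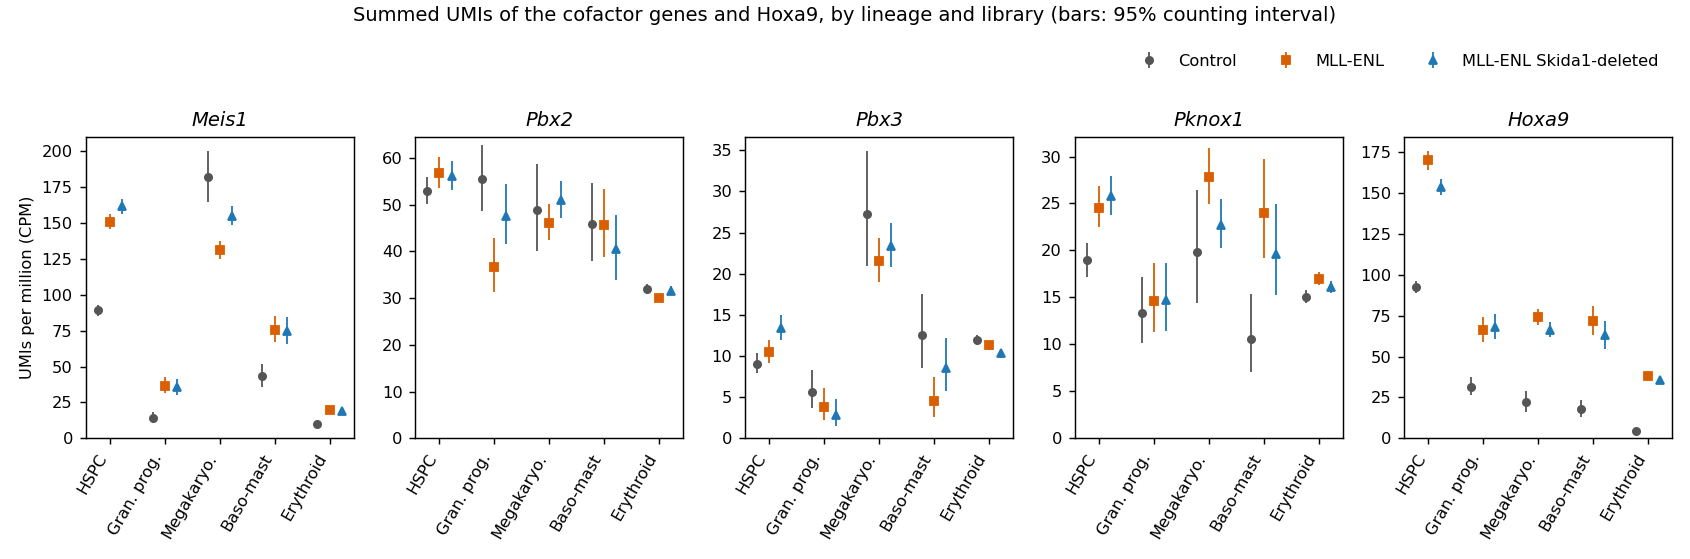
CPM (vertical axes, each from 0) of the 4 cofactor genes and Hoxa9 in the 5 lineages with at least 100 cells in every library. Each point is 1 library (circle, Control; square, MLL-ENL; triangle, MLL-ENL with Skida1 deleted), and bars are 95% counting intervals. Meis1 lies higher in the fusion libraries in 4 lineages, for example 89.2 against 151 CPM in HSPC-like cells of Control and MLL-ENL, but not in megakaryocyte-like cells, whereas Pbx2 and Pbx3 overlap in most lineages.

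Among Control cells the highest Meis1 level was in megakaryocyte-like cells, at 182 CPM [165–200]. HSPC-like cells followed with 89.2, basophil-mast-like cells with 43.2 [35.6–51.8], granulocyte progenitor-like cells with 14.3 [10.95–18.2] and erythroid-like cells with 10.2 [9.61–10.75]. No intervals of neighbours in this order met, though the last pair came close. In MLL-ENL the order changed at the top, with 151 CPM in HSPC-like and 131 in megakaryocyte-like cells, followed by 75.7 in basophil-mast-like, 36.8 in granulocyte progenitor-like and 19.7 in erythroid-like cells.

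Outside the HSPC-like class, Meis1 was higher in the fusion libraries in 3 lineages. In granulocyte progenitor-like cells, marked by Mpo, Elane and Ctsg, it had 14.3 CPM in Control, 36.8 in MLL-ENL and 35.5 in Skida1-deleted cells, a 2.58-fold difference between MLL-ENL and Control [1.92–3.51]. In basophil-mast-like cells it had 43.2, 75.7 and 74.8 CPM, 1.75-fold [1.40–2.20]. In erythroid-like cells it had 10.2, 19.7 and 19.2 CPM, 1.94-fold [1.81–2.07]. Control and fusion erythroid-like cells shared almost no cluster: Control cells lay in c0, c1, c3, c4 and c5, which held at most 3 MLL-ENL and 0 Skida1-deleted cells each, apart from 55 in c13 and 3 in c18. In each of these lineages the Control interval lay below both fusion intervals, and the fusion libraries overlapped each other. Each lineage's own markers moved with the groups, from 23604 CPM in Control to 15219 and 17485 in the fusion libraries for the 14 granulocyte progenitor markers (13 of 14 at 5 CPM or more in each, 0 at 0). The 14 basophil-mast markers summed to 5816, 4048 and 2487 CPM (12, 13 and 11 at 5 CPM or more; 0, 1 and 1 at 0), and the 20 erythroid markers to 5495, 3948 and 3576 (18 in each, 0 at 0). The 12 lymphoid progenitor markers summed to 214, 487 and 414 CPM in granulocyte progenitor-like cells, with 6, 7 and 6 at 5 CPM or more and 2, 3 and 3 at 0. Their part in the Meis1 differences was not tested. In basophil-mast-like cells the Meis1 log2 ratio of 0.80 was past 1.5-fold in 8 of 10 alternatives, with 0.064 under a strict cell filter and 0.45 with classes from a marker score. The small B-lineage class, with 45, 93 and 101 cells, had 7, 45 and 30 Meis1 UMIs, or 21.2 [8.51–43.6], 80.7 [58.8–108] and 72.8 [49.1–104] CPM.

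In megakaryocyte-like cells Meis1 was lower in MLL-ENL over the whole class and level in the cluster shared by the libraries. Over the whole class Meis1 had 182 CPM in Control, 131 in MLL-ENL and 155 in Skida1-deleted cells, a ratio of 0.720 for MLL-ENL over Control [0.646–0.804]. The sign of that difference turned under 2 of 11 alternatives. In c9, the cluster that all libraries shared, the 111 Control cells had 182 CPM, the 213 MLL-ENL cells 181 and the 359 Skida1-deleted cells 200, a ratio of 0.995 for MLL-ENL over Control [0.872–1.14]. The lower class value came with c17, which held 3 Control cells and had 116 CPM in MLL-ENL and 135 in Skida1-deleted cells. The summed level of the 14 megakaryocyte markers was also lower in the fusion libraries, at 4743, 2240 and 2626 CPM, with 11, 10 and 10 of them at 5 CPM or more and 1 at 0 in Skida1-deleted cells. That of the 20 erythroid markers was 670, 1114 and 831 CPM, with 11, 14 and 13 at 5 CPM or more and 2, 2 and 0 at 0. Their part in the Meis1 difference was not tested. Hoxa9 was 3.37-fold higher in MLL-ENL megakaryocyte-like cells than in Control [2.53–4.57], in the same cells in which Meis1 was not higher.

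**Figure D2:**
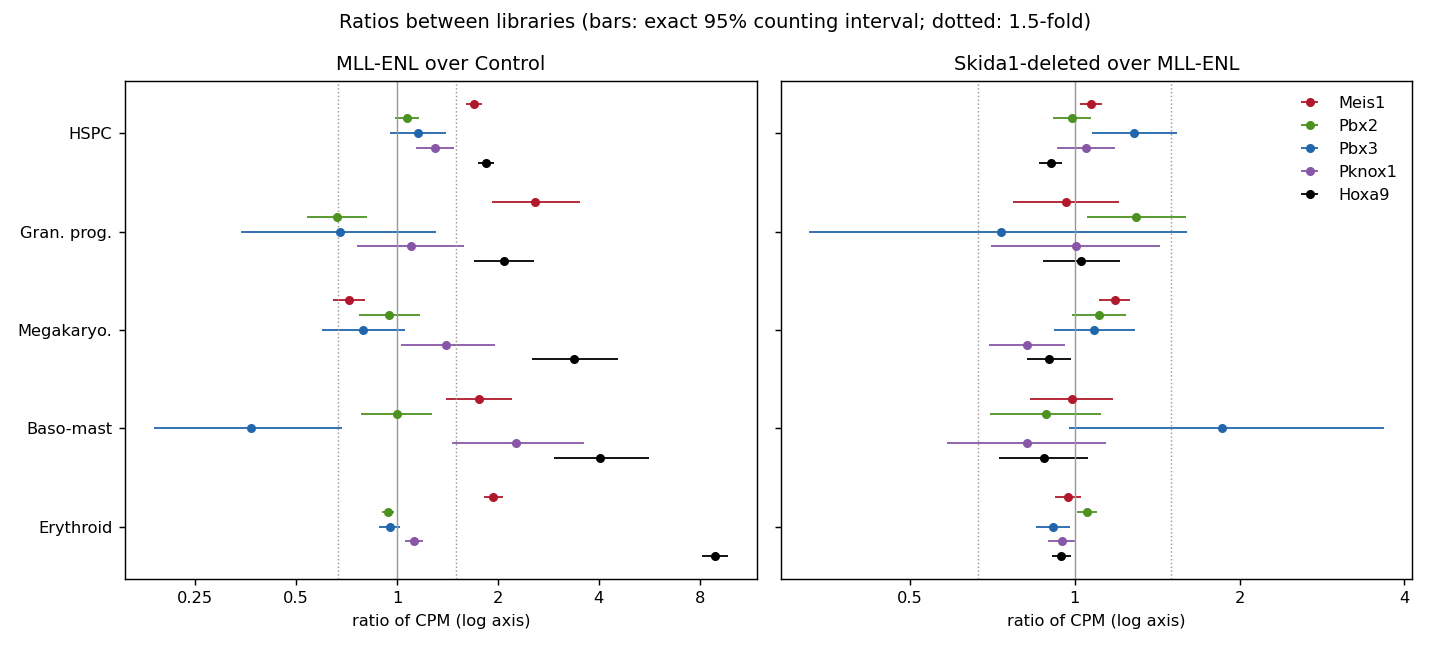
Ratio of CPM between libraries (horizontal log axes) for the 4 cofactor genes and Hoxa9 in 5 lineages, MLL-ENL over Control on the left and Skida1-deleted over MLL-ENL on the right. Points are ratios of 1 library to 1 library, bars are exact 95% counting intervals, and dotted lines mark 1.5-fold. On the left Hoxa9 lies right of 1.5 in all 5 lineages and Meis1 in 4, and on the right most points lie near 1, with 1.07 for Meis1 in HSPC-like cells.

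Pbx2, which is expressed in most tissues, was nearly level. It had 53.0 CPM [50.1–56.0] in Control HSPC-like cells, 56.8 [53.5–60.2] in MLL-ENL and 56.2 [53.2–59.3] in Skida1-deleted cells, and the 3 intervals overlapped. In megakaryocyte-like cells it had 48.8, 46.1 and 51.0 CPM, in basophil-mast-like cells 45.8, 45.7 and 40.5, and in erythroid-like cells 31.9, 30.03 and 31.6. Granulocyte progenitor-like cells differed, with 55.4 CPM [48.7–62.8] in Control, 36.8 [31.3–42.9] in MLL-ENL and 47.6 [41.6–54.4] in Skida1-deleted cells. The ratio of MLL-ENL to Control was 0.663 there [0.541–0.812], just short of the threshold on the log2(CPM + 1) scale. In the small B-lineage class Pbx2 had 12, 22 and 35 UMIs, or 36.3, 39.4 and 84.9 CPM, a ratio of 2.15 for Skida1-deleted over MLL-ENL [1.23–3.85].

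Pbx3, the PBX gene linked to Hoxa9 and Meis1 in leukemias with MLL fusions, was low in HSPC-like cells and did not follow Meis1. It had 9.05 CPM [7.87–10.3] in Control (214 UMIs), 10.5 [9.10–12.0] in MLL-ENL (212 UMIs) and 13.4 [11.99–15.01] in Skida1-deleted cells (314 UMIs). Control and MLL-ENL overlapped, with a ratio of 1.16 [0.952–1.40]. Within the fusion cells Pbx3 was concentrated in c16, the cluster that also had the most Meis1. It had 29.2 CPM in c16 against 7.63 in c15 and 7.15 in c19 of MLL-ENL, and 44.1 against 9.46 and 9.61 in Skida1-deleted cells. Without c16 the log2 ratio of MLL-ENL over Control turned from 0.19 to -0.30. As c16 held 448 MLL-ENL and 3 Control cells, this took Pbx3-rich cells almost only from the MLL-ENL side. The level in Control c2 was 9.09 CPM, above those of c15 and c19 in MLL-ENL. That comparison is uneven, since c2 held 1300 of the 1309 Control cells without a split.

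Of the other lineages, basophil-mast-like cells had the Pbx3 ratio farthest from 1. Megakaryocyte-like cells had 27.3 CPM [20.9–34.9] in Control, 21.5 [19.0–24.3] in MLL-ENL and 23.4 [20.9–26.2] in Skida1-deleted cells. In the shared cluster c9 the values were 27.7, 28.8 and 32.6 CPM. Basophil-mast-like cells had 12.5 CPM [8.60–17.5] in Control, 4.57 [2.61–7.42] in MLL-ENL and 8.50 [5.69–12.2] in Skida1-deleted cells, from 33, 16 and 29 UMIs. Control and MLL-ENL did not overlap, and the ratio was 0.366 [0.188–0.684]. Its log2 ratio of -1.28 was past 1.5-fold in 8 of 10 alternatives, with -0.21 after thinning to 3000 UMIs and -0.10 with classes from a marker score. Granulocyte progenitor-like cells had 25, 17 and 13 UMIs, or 5.66, 3.84 and 2.82 CPM, and their intervals overlapped. In erythroid-like cells the levels were 11.9, 11.3 and 10.3 CPM.

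Pknox1 was moderately higher in fusion HSPC-like cells, with 18.9 CPM [17.2–20.8] in Control, 24.6 [22.5–26.8] in MLL-ENL and 25.8 [23.8–27.9] in Skida1-deleted cells. The ratio of MLL-ENL to Control was 1.30 [1.14–1.48], which did not reach 1.5. Within MLL-ENL it had 32.9 CPM in c19, 24.2 in c16 and 18.5 in c15, so its order among clusters differed from that of Meis1. Basophil-mast-like cells had 10.6 CPM [7.04–15.3] in Control, 24.0 [19.1–29.7] in MLL-ENL and 19.6 [15.2–24.9] in Skida1-deleted cells, a 2.26-fold difference between MLL-ENL and Control [1.46–3.61] from 28 and 84 UMIs. Its log2 ratio of 1.11 was past 1.5-fold in 8 of 10 alternatives, with 0.35 under the strict cell filter and 0.44 at clustering resolution 0.5. In granulocyte progenitor-like cells the levels were 13.4, 14.7 and 14.7 CPM, and in erythroid-like cells 15.1, 17.0 and 16.1. Megakaryocyte-like cells had 19.8, 27.8 and 22.7 CPM, 1.40-fold between MLL-ENL and Control [1.03–1.96]. In their shared cluster c9 the levels were 19.5, 16.3 and 15.8 CPM, a ratio of 0.834 [0.539–1.29].

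By the same rule, 1 of 4 cofactor genes was higher and 0 lower in granulocyte progenitor-like cells of MLL-ENL against Control, where 5.62% of all tested genes were higher and 19% lower. In basophil-mast-like cells 2 were higher (Meis1 and Pknox1) and 1 lower (Pbx3), against 6.08% and 12.9% of genes with at least 30 CPM, and 6.55% and 14.2% of those with at least 10. The Pbx3 call rests on 33 and 16 UMIs. In erythroid-like cells 1 was higher and 0 lower, against 4.98% and 9.57%. In megakaryocyte-like cells 0 were higher or lower, against 7.04% and 19.3%.

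Between Skida1-deleted and MLL-ENL cells of the HSPC-like class, Meis1, Pbx2 and Pknox1 differed by less than 1.1-fold. Meis1 was 1.07-fold that of MLL-ENL [1.02–1.12], Pbx2 0.9899-fold [0.914–1.07], Pknox1 1.05-fold [0.92997–1.18] and Pbx3 1.29-fold [1.08–1.54]. By the rule, 0 of 4 were higher or lower, against 1.4% and 0.459% of 4354 genes. The Meis1 ratio was 1.11 in c15, 1.09 in c16 and 1.09 in c19. For Pbx3 it was 1.51 in c16 [1.14–2.02], 1.24 in c15 [0.910–1.70] and 1.34 in c19 [0.943–1.93]. In basophil-mast-like cells 1 of 4 genes, Pbx3, was higher and 0 lower, against 1.67% and 1.72% of all genes. It had 16 and 29 UMIs, 1.86-fold [0.977–3.67], an interval that holds 1. In granulocyte progenitor-like cells 0 of the 3 measured genes were higher or lower (1.41% and 0.959% of all genes). The counts were also 0 of 4 in megakaryocyte-like (1.31% and 0.668%) and erythroid-like cells (0.948% and 0.564%). The comparisons with MLL-ENL as base and with Control as base share the MLL-ENL library.

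Along 5 deeply sequenced erythroid-like clusters of Control, the Meis1 value was lower in each cluster of higher globin share. The intervals overlapped from c0 to c3 and from c3 to c5. Fusion cells placed at these clusters had the same order. Hoxa9 stayed above 20 CPM in the fusion cells of the highest globin share. A sixth Control cluster, c13, was left out of this order after its values were seen. Its 55 Control cells had a median of 1529 UMIs, a globin share of 0.0521% between those of c3 and c5, and 33.1 Meis1 CPM from 4 UMIs. The 617 MLL-ENL and 257 Skida1-deleted cells placed there had 52.0 and 33.1 CPM, a ratio of 1.57 for MLL-ENL over Control [0.586–5.93]. With c13 in its place the Meis1 level does not go down at each step. Control cells of the other clusters, ordered by the globin share of their UMIs, had 37.3 Meis1 CPM in c4, 19.4 in c1, 1.73 [1.25–2.33] in c0, 1.08 [0.804–1.43] in c3 and 0.327 [0.0396–1.18] in c5. The globin shares of c0 and c3 were close, at 0.0321% and 0.0323%. Control HSPC-like cells of c2 had 0.0452%, so a globin share this low does not by itself place cells along the erythroid lineage. MLL-ENL cells nearest to the same Control clusters had 67.6, 37.2, 10.6, 7.32 and 2.91 CPM, and Skida1-deleted cells 86.1, 43.2, 10.7, 5.87 and 2.33. The ratio of MLL-ENL to Control was 1.81 at c4 [1.64–2.003], 1.92 at c1 [1.75–2.11], 6.15 at c0 [4.44–8.71] and 6.76 at c3 [5.03–9.25]. At c5, where Control had 2 UMIs, it was 8.89 [1.77–85.9]. Among these 5 groups the relative difference was larger in the 3 of highest globin share, where the Meis1 level itself was small. The groups were not alike in the erythroid regulator Klf1, at 114 (Control) against 40.8 CPM (MLL-ENL) for c4 and 249 against 103 for c3. The part of this gap in the Meis1 ratios was not tested.

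Hoxa9 took another course in the same cells. In Control it had 12.5, 8.41, 1.61, 0.737 and 0.327 CPM from c4 to c5. In MLL-ENL it had 51.5, 48.8, 36.8, 31.0 and 25.1 CPM, with a ratio of 4.10 at c4 [3.51–4.82] and 42.1 at c3 [30.02–60.99]. The ratio of the pair differed between clusters. In MLL-ENL there were 1.13 Hoxa9 UMIs per Meis1 UMI in HSPC-like cells. There were 0.693 in the erythroid-like cluster c22, of low globin share, and 13.4 in c23, of high globin share. In Skida1-deleted cells there were 0.951, 0.638 and 14.4. The Hoxa9 UMIs of c23 were thus not in the proportion to Meis1 found in HSPC-like cells. Pbx3 ran closer together across libraries: it had 12.1 CPM at c4 and 20.1 at c5 in Control, and 12.1 and 22.9 in MLL-ENL. Part of the MLL-ENL erythroid-like cells were shallow, with 2773 cells of a median 4373 UMIs in c18, a cluster with 3 Control and 24 Skida1-deleted cells, where Meis1 had 35.8 CPM. The globin share there was 0.0441%, above that of the deeper MLL-ENL clusters c20 and c21, which had 6.51 and 10.6 Meis1 CPM.

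**Figure D3:**
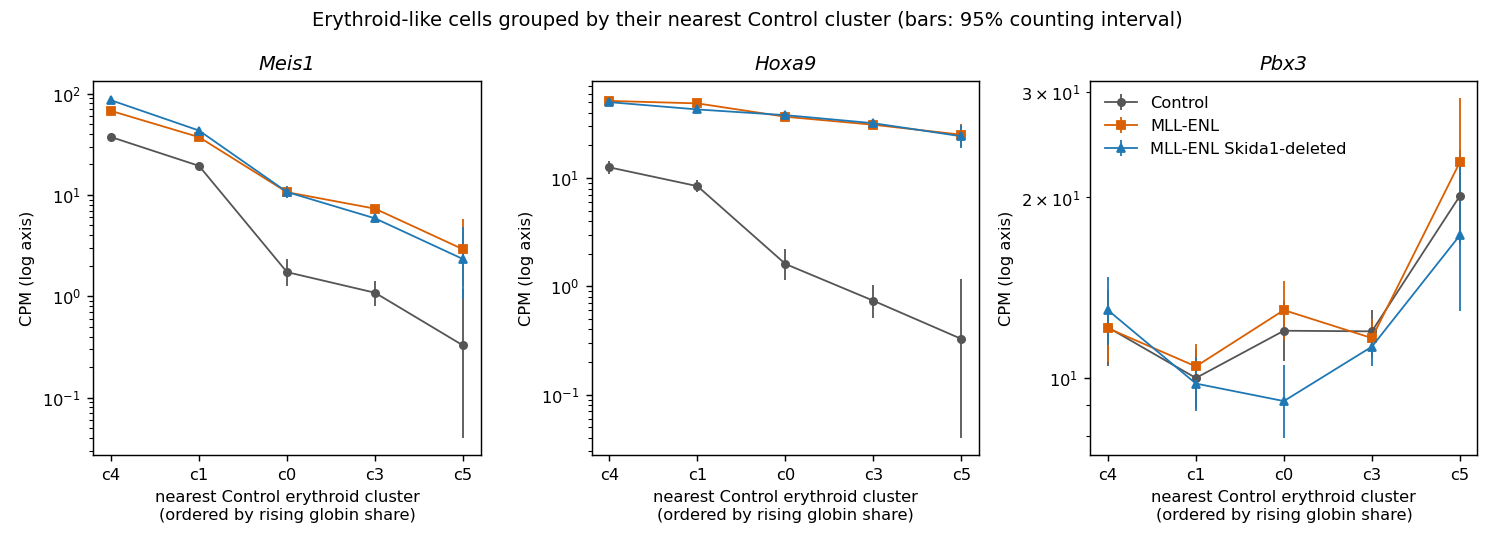
Meis1, Hoxa9 and Pbx3 CPM (vertical log axes) in erythroid-like cells, with MLL-ENL and Skida1-deleted cells placed by the Control cluster of their nearest Control cells; the 5 clusters run from low to high globin share, without the shallow cluster c13. Bars are 95% counting intervals. Meis1 falls from 37.3 to 0.327 CPM in Control and from 67.6 to 2.91 in MLL-ENL. Hoxa9 ends at 25.1 CPM in MLL-ENL and 0.327 in Control. Pbx3 lies closer together across libraries, apart from c0, where Skida1-deleted cells had 9.15 CPM against 12.0 in Control.

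Meis1 and Hoxa9 were then followed in single cells, each thinned to 5000 UMIs so that depth could not set which cells had a UMI. Shallower cells were left out, which kept 1299 of 1309, 1661 of 1742 and 2060 of 2299 HSPC-like cells. Meis1 had a UMI in 40.6% of Control, 51.7% of MLL-ENL and 55.7% of Skida1-deleted cells, against 69.3%, 76.3% and 75.5% without thinning. For comparison, erythroid-like cells, a lineage in which Meis1 declines, had a Meis1 UMI in 6.35%, 11.1% and 11.8% of cells at 5000 UMIs, with median depths of 34330.5, 17499 and 25997 UMIs before thinning.

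In each library Meis1 was found somewhat more often in HSPC-like cells that also had a Hoxa9 UMI. In Control, 223 of 487 cells with Hoxa9 had Meis1, or 45.8% [41.3–50.3], against 37.4% [34.1–40.9] of 812 cells without it. MLL-ENL cells had 54.3% [51.1–57.6] against 48.2% [44.5–51.9], and Skida1-deleted cells 58.5% [55.5–61.5] against 52.8% [49.7–55.9]. The number of cells with both was 1.13, 1.05 and 1.05 times the number expected from the product of the shares. The intervals of cells with and without Hoxa9 were just apart in Control and just overlapped in both fusion libraries. With classes cut from a marker score per cell instead of clusters, the excess in cells with Hoxa9 shrank from 8.35, 6.13 and 5.69 percentage points to 0.675, 0.170 and 1.26. In that alternative 12.3%, 25.1% and 23.5% of kept cells lay within 0.1 of the dividing score. In the Meis1-rich cluster c16 the order was turned, with 64.0% [58.1–69.6] of cells with Hoxa9 against 78.4% [68.8–86.1] of those without in MLL-ENL, and 73.8% against 78.1% in Skida1-deleted cells. Hoxa9 too was highest in c16, with 306 CPM against 160 in c15 and 126 in c19 of MLL-ENL. In Skida1-deleted cells it had 247, 156 and 126 CPM in the same order. The part of pooling these clusters in the excess over the class was not tested.

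For the other cofactor genes the shares in cells with and without Hoxa9 lay fewer percentage points apart. These genes were found in fewer cells than Meis1, so differences in percentage points do not compare the relative excess between genes. Pbx2 had a UMI in 25.1% against 22.2% of Control, 28.0% against 24.2% of MLL-ENL and 25.4% against 24.98% of Skida1-deleted cells. For Pbx3 the shares were 5.13% against 3.94%, 5.47% against 4.67%, and 6.09% against 6.24%. For Pknox1 they were 10.5% against 9.61%, 11.04% against 10.7%, and 13.7% against 12.1%. The intervals of cells with and without Hoxa9 overlapped for each of these 3 genes in every library. Among cells with both Hoxa9 and Meis1, 30.9% in Control, 32.1% in MLL-ENL and 32.0% in Skida1-deleted cells also had Pbx2 or Pbx3. Among cells with neither, 22.8%, 25.7% and 26.9% did. The intervals of the 2 shares overlapped in every library, for example 24.9–37.5 and 19.3–26.7 in Control. Cells with Hoxa9, Meis1 and either PBX gene made up 5.31% of HSPC-like Control cells, 9.81% of MLL-ENL and 9.56% of Skida1-deleted cells.

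**Figure D4:**
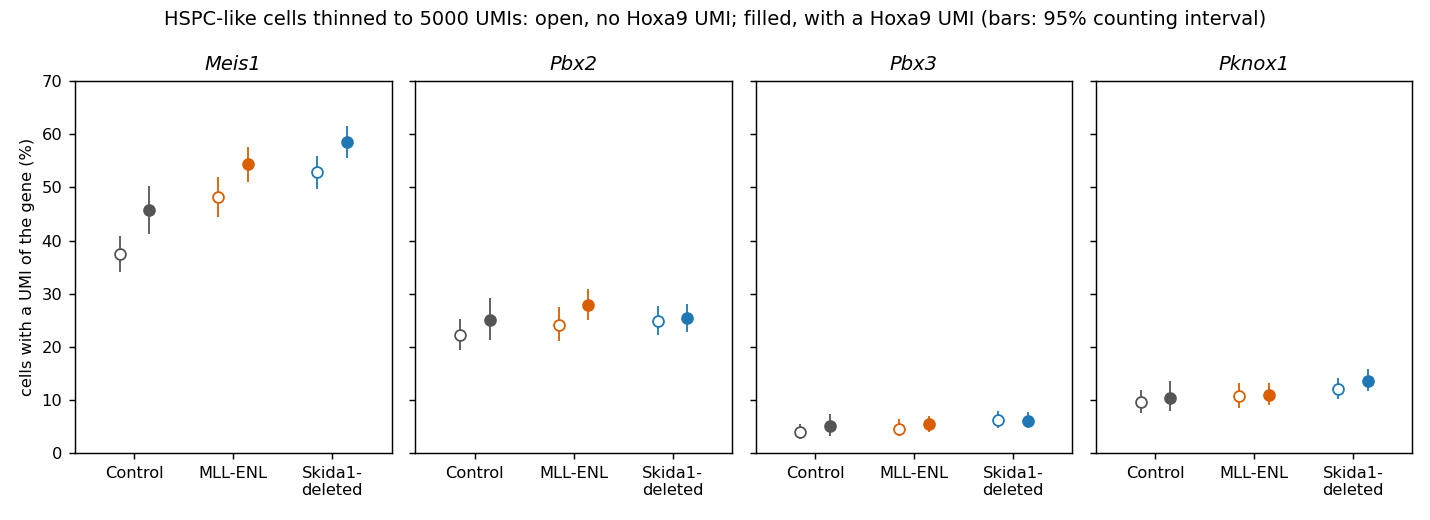
Share of HSPC-like cells with a UMI of each cofactor gene (vertical axis, percent) at 5000 UMIs per cell, split by the absence (open) or presence (filled) of a Hoxa9 UMI, in each library. Bars are exact binomial 95% intervals. Meis1 is higher in cells with Hoxa9 in each library, at 45.8% against 37.4% in Control. Its intervals are apart in Control and overlap in both fusion libraries, and those of the other 3 genes overlap in every library.

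The observed number of cells with both genes was farthest above the expected number in Control erythroid-like cells, where both were rare. At 5000 UMIs 3465 of 3528 Control, 5587 of 7669 MLL-ENL and 5000 of 5399 Skida1-deleted erythroid-like cells remained. Of 103 cells with a Hoxa9 UMI, 35 had Meis1 (34.0% [24.9–44.0]), against 5.50% [4.76–6.33] of the 3362 other cells, or 5.35 times the expected number. Among the 5 ordered Control clusters both genes were highest in those of lowest globin share. Within c4 alone the excess was 2.54 times, with 45.7% against 15.9%. In MLL-ENL the excess over all erythroid-like cells was 1.29 times, with 14.3% [12.1–16.6] against 10.4% [9.54–11.3], and in Skida1-deleted cells 1.48 times. In megakaryocyte-like cells Meis1 was found in 52.6% of 19 Control cells with Hoxa9 and in 63.7% of the others, with overlapping intervals.

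The antibody tags were not used to form the classes or to choose the genes. HSPC-like cells of each library were ranked by the share of each tag in the cell's tag counts. The highest and the lowest 436 Control, 580 MLL-ENL and 766 Skida1-deleted cells were compared, called tag-high and tag-low here. In Control, CD48 had a median share of 51.6% in CD48-low and 77.3% in CD48-high cells. CD201 had 0.111% in CD201-low and 0.721% in CD201-high cells. Shares of 1 total are tied to each other, so the tags were not separate readouts. The part of this tie in the ratios below was not tested. Sca1, CD150 and CD201 (EPCR) mark hematopoietic stem cells in mice, whereas CD48 and, in the adult, CD34 mark progenitors that have left that state. Meis1 had 161 CPM in Sca1-high and 49.1 in Sca1-low Control cells, a 3.28-fold difference [2.94–3.66]. In MLL-ENL it had 234 and 108 CPM (2.17-fold [1.99–2.37]), and in Skida1-deleted cells 227 and 121 CPM (1.88-fold [1.74–2.04]). For CD201 the ratios were 2.32, 1.59 and 1.49, and for CD150 they were 1.91, 1.80 and 1.501. CD127, the IL-7 receptor chain carried by lymphoid progenitors, went the same way with 1.33, 1.29 and 1.27. For CD16/32, CD41 and CD117, Meis1 had 0.696 to 1.08 in Control, 0.761 to 1.24 in MLL-ENL and 0.676 to 1.13 in Skida1-deleted cells, and for CD135 it had 0.916, 1.18 and 1.07. Meis1 was lower in CD48-high than CD48-low cells, with ratios of 0.549, 0.528 and 0.678, and in CD34-high cells, with 0.492, 0.539 and 0.607. Sca1-low MLL-ENL cells (108 CPM) thus lay above Sca1-low and below Sca1-high Control cells. Low and high were set by rank within each library, so these cells were not matched on Sca1 level between libraries.

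Pbx3 went the same way as Meis1 for Sca1, CD150, CD201, CD34 and CD48. For Sca1 and CD48 its ratios lay farther from 1 in the fusion libraries. It had 13.2 CPM in Sca1-high and 6.73 in Sca1-low Control cells (1.96-fold [1.39–2.76]), 22.6 and 5.81 in MLL-ENL (3.89-fold [2.76–5.55]) and 31.6 and 6.29 in Skida1-deleted cells (5.03-fold [3.76–6.82]). The Sca1-low cells of the 3 libraries spanned 5.81 to 6.73 CPM, and the Sca1-high cells 13.2 to 31.6, again with low and high set within each library. For CD48, high over low, the Pbx3 ratios were 0.582 [0.412–0.821], 0.296 [0.212–0.409] and 0.205 [0.150–0.278]. For CD201 the Pbx3 ratios were 2.19 in Control, 2.19 in MLL-ENL and 3.18 in Skida1-deleted cells, and for CD34 they were 0.540, 0.538 and 0.455. For CD127 they were 1.43, 2.19 and 2.67, and for CD135 (the FLT3 receptor) 0.984, 1.55 and 2.12. Other tags parted the genes in Control. The Pbx3 ratio was 1.67 [1.20–2.35] for CD41, against 1.08 [0.966–1.20] for Meis1. For CD117 Pbx3 had 1.39 [0.993–1.97] against 0.696 [0.624–0.776], and for CD16/32 1.04 [0.743–1.45] against 0.715 [0.642–0.796]. Pbx2 moved less, with Sca1 ratios of 1.27, 1.31 and 1.33, and for Pknox1 they were 1.12, 0.978 and 1.43. Depth moved with the tags: median UMIs were 11514.5 in Sca1-high and 22820.5 in Sca1-low Control cells, 6756.5 and 14768 in MLL-ENL, and 6166.5 and 12144.5 in Skida1-deleted cells. The part of depth in these ratios was not tested.

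**Figure D5:**
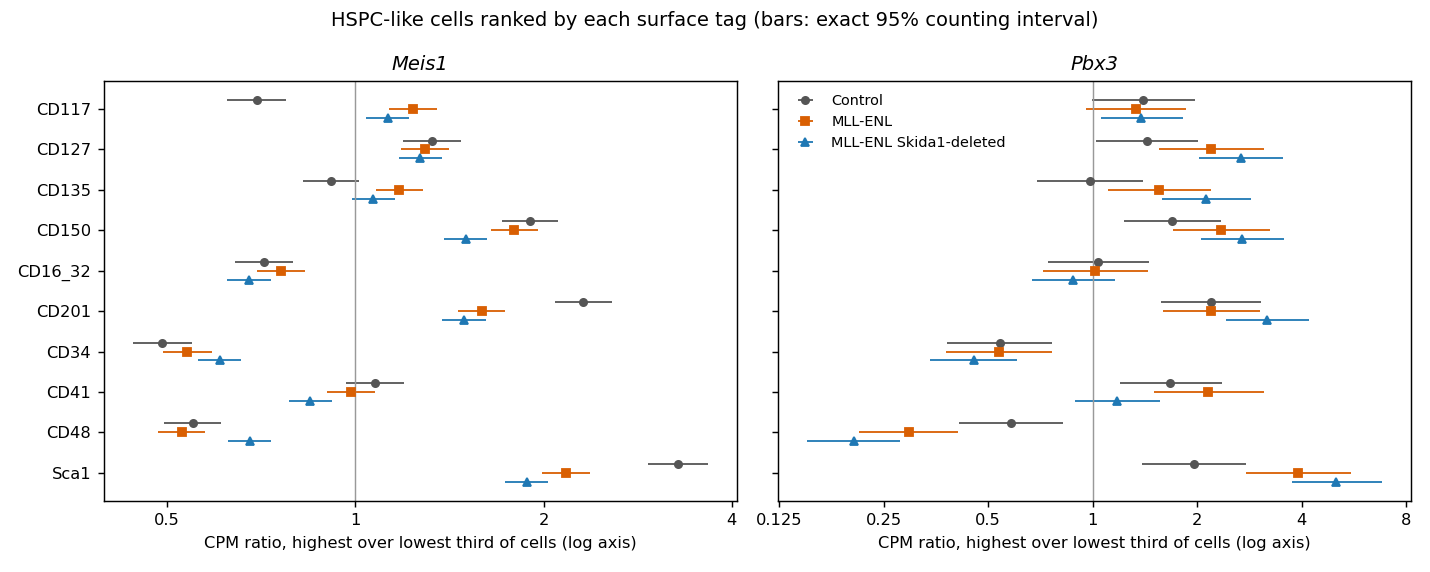
Ratio of Meis1 (left) and Pbx3 (right) CPM in tag-high over tag-low HSPC-like cells for each of 10 surface tags (horizontal log axes), in each library. Bars are exact 95% counting intervals. Both genes lie right of 1 for Sca1, CD150 and CD201 and left of 1 for CD34 and CD48, with Sca1 ratios of 3.28 for Meis1 in Control and 5.03 for Pbx3 in Skida1-deleted cells.

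Of 8 further genes of the TALE family and its PBX-binding partners, 5 reached 5 CPM in HSPC-like cells of Control or MLL-ENL, and 0 of the 5 were higher or lower between them, where 6.8% of all 4764 genes were higher and 15% lower. Tgif2, a repressor of TGF-beta signalling, had 11.2 and 15.9 CPM (ratio 1.41 [1.20–1.67]). Tgif1 had 22.9 and 25.7, and Pbx4 19.4 and 20.9. Meis2, Meis3 and Pknox2 stayed below 5 CPM.

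Among 20 HoxA and HoxB genes, the possible Hox partners, 6 were measured in HSPC-like cells, of which 4 were higher in MLL-ENL than in Control and 0 lower (all genes: 6.8% and 15%). Hoxa5 had 8.96 and 37.7 CPM (4.21-fold [3.61–4.92]), Hoxa3 5.88 and 21.4 (3.64-fold), and Hoxa10 9.85 and 27.7 (2.81-fold), and Hoxa9 was the fourth. Hoxa7 had 74.8 and 110 CPM, and Hoxb4 12.3 and 11.1. Of 14 genes known to act downstream of or with Meis1, 12 were measured, 2 of them higher and 0 lower (all genes: 6.8% and 15%). The RNA-binding regulator Msi2 had 142 and 298 CPM (2.10-fold [2.01–2.19]), and the kinase Syk 52.5 and 104 (1.98-fold [1.85–2.13]). The receptor kinase Flt3 had 135 and 92.7, and the hypoxia factor Hif1a 46.8 and 34.1, neither past the threshold. The median log2 ratio of the 12 was -0.16, equal to that of all genes at this precision. Other lineages differed. The list median was 0.32 in granulocyte progenitor-like (all genes -0.24) and 0.29 in erythroid-like cells (all genes -0.15). It was -0.28 in megakaryocyte-like (all genes -0.21) and -0.31 in basophil-mast-like cells (all genes -0.15). Of 16 known MLL-fusion targets 14 were measured, with 8 higher and 0 lower (all genes: 6.8% and 15%), including Mecom (31.4 and 120 CPM), Hmga2 (269 and 552) and Mef2c (291 and 565). The largest ratio in this list was that of Skida1. Between Skida1-deleted and MLL-ENL cells of the HSPC-like class, 0 genes of the first 3 lists were higher or lower, against 1.4% and 0.459% of all genes. This count does not extend to the other lineages, where some genes of these lists were called. Of the fusion targets 1 was higher, Eya1 (18.3 and 35.2 CPM), and 1 lower, Skida1.

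Likeness was measured as the Pearson correlation of log2(CPM + 1) over the 15 profiles of library and lineage, among 5841 genes with at least 30 CPM in any profile. These profiles share libraries and lineages and are not independent. Genes most like Meis1 were Tet3 (0.961), Elf1 (0.957), Vezf1 (0.957), Specc1l (0.952) and Mef2a (0.943). Pbx2 was most like Mycbp2 (0.924), Abraxas2, Zfp326, Inpp1 and Slc50a1 (0.911). For Pbx3 the nearest were Top2a (0.931), Spc25, Plxnc1, Hjurp and Kri1 (0.910), of which Top2a, Spc25 and Hjurp act in chromosome segregation. For Pknox1 they were Exoc4 (0.905), Etaa1, Map7, Chd8 and Mast4 (0.853). Between the members, Meis1 correlated at 0.742 with Pknox1, 0.653 with Pbx2 and 0.464 with Pbx3, and at 0.637 with Hoxa9. Pbx3 correlated at -0.16 with Hoxa9 and at 0.084 with Pbx2.

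One annotated RNA gene, Gm16141, overlaps Meis1. It had 4.02, 9.13 and 14.5 CPM in the HSPC-like cells of the 3 libraries, Control first. The sources used here do not say whether counting used strand, and how reads of the overlap were counted was not tested.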

How the data were processed

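Lineage-negative, KIT-positive cells of 3 libraries, 1 per group, were measured with 10x Genomics 3' chemistry v3.1 and feature barcodes, per the labels' protocols. The deposited files hold raw UMI counts per gene and tag for each barcode, not normalized by the authors; they were made with Cell Ranger, version 6.1.2 per the file headers but 6.0.1 (on mm10) per the submitters' processing notes. Cells were kept with at least 1000 UMIs, 500 genes and under 10% mitochondrial UMIs, and Scrublet calls (383, 341 and 618 cells) were removed. Scanpy 1.11.5 clustered all kept cells together without integration (2000 variable genes, 30 components, 15 neighbours, Leiden resolution 1.0). The classes rest on clusters rebuilt here, named "like" a lineage from 15 marker lists. UMIs were summed per class and library and scaled to CPM; intervals are exact Poisson (CPM), conditional binomial (ratios) and Clopper-Pearson (shares). A list gene was measured at 5 CPM or more. Positions are from RefSeq, GRCm38.p6, by symbol. The genes named are the 4 members, Hoxa9, up to 4 genes per list with the largest absolute log2 ratio, and the 5 most alike; 1 list gene that this rule names is not reported here. Genes named beyond the rule, such as the leading genes of c16, were chosen after their values were seen. The members and lists were chosen with earlier results of these data known. On simulated counts of 4570 genes in HSPC-like cells with 200 changed 2-fold, the rule called 100% of them for MLL-ENL over Control. These counts held counting error only, for genes of at least 30 CPM. They cannot speak to spread between animals, to class makeup, or to Pbx3 and Pknox1, which lay below 30 CPM. Alternatives are in the closing section.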

Additional observations from a re-analysis of the deposited data

Results flagged for a closer look

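Meis1 differed in direction between lineages under the same contrast. The ratio of MLL-ENL to Control was 1.69 in HSPC-like, 2.58 in granulocyte progenitor-like, 1.75 in basophil-mast-like and 1.94 in erythroid-like cells, but 0.720 in megakaryocyte-like cells. Each ratio compares 1 library with 1 library, and the difference between lineages was not tested. In the megakaryocyte-like cluster that all libraries shared the ratio was 0.995.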

How the results depend on the processing

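No paired analysis was possible because each group has 1 library and the labels carry no replicate numbers. The log2 ratio of Meis1 in HSPC-like cells, MLL-ENL over Control, was 0.75 and stayed positive under all 12 alternatives, past 1.5-fold in 7. It was 0.52 without doublet removal, 1.46 with a strict cell filter (at least 3000 UMIs and 1500 genes, under 5% mitochondrial UMIs), 0.51 with all variable genes in the clustering, 0.56 at resolution 2.0, 0.41 with classes from a marker score, 0.65 with the class of the nearest Control cells, 0.68 as the mean of each cell's CPM, 0.61 after thinning to 3000 UMIs and 0.55 without c16. For Pbx3 it was 0.19, against 1.23 with the strict filter and -0.30 without c16. Meis1 in Skida1-deleted over MLL-ENL was 0.10, and 0.31 with the strict filter. The excess of Meis1 in cells with Hoxa9, in percentage points, came to 8.35 for Control, 6.13 for MLL-ENL and 5.69 for Skida1-deleted cells. With classes from a marker score it was 0.675, 0.170 and 1.26. With granulocyte progenitor-like cells added it was 10.5 in MLL-ENL and 9.59 in Skida1-deleted cells. That alternative was to add lymphoid progenitor-like cells too, but no cluster was named so. At the cells' own depth the excess was 1.97 in MLL-ENL, and with the strict filter -10.9 in Control. The strict filter left 22 HSPC-like Control cells. Meis1 in megakaryocyte-like cells, at -0.47, ranged from -0.46 to 0.17 over 11 alternatives, negative in 9. Pbx3 in basophil-mast-like cells, at -1.28, stayed negative in 10 of 10 and ranged from -1.74 to -0.10. The removal of c16, the cluster shared by megakaryocyte-like cells, the removal of shallow erythroid-like clusters and the grouping by nearest Control cluster were chosen after seeing the data. At resolution 0.5 no granulocyte progenitor-like class was found. Except where the construction shows it (fewer cells), the cause of each change was not tested.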
